A study of Homo sapiens with 8 samples.

Results

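The 4 HOX clusters, HOXA, HOXB, HOXC and HOXD, were followed CpG by CpG while human embryonic stem cells lost the enzyme that maintains DNA methylation. Every CpG listed inside 4 hg19 intervals was taken, namely chr7:27132000-27250000 for HOXA, chr17:46606000-46806500 for HOXB, chr12:54332000-54450000 for HOXC and chr2:176957000-177056000 for HOXD. This gave 1408, 1405, 1055 and 1247 CpGs, or 5115 of the 3209182 listed in any library. The cells were HUES64, an established embryonic stem cell line, and their DNA was read by reduced representation bisulfite sequencing (RRBS), a method that samples the CpG-rich DNA around MspI sites. All 8 libraries carry the genotype given as DNMT1 knockout, and they form 1 course of DNMT1* withdrawal with 1 library on each of days 0, 1, 2, 3, 4, 5, 6 and 7. There were no replicates, no wild-type library was analysed here, and the labels do not say whether the line is 1 clone. The data hold no expression values, so the labelled cell type could not be checked against marker genes.

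HOX genes encode homeodomain transcription factors that tell cells their place along the head-to-tail axis, and each cluster keeps its genes in the order of the body levels they pattern. In embryonic stem cells the clusters are largely silent, are covered by Polycomb repressive chromatin and are known for broad CpG-rich stretches with little DNA methylation. When DNA is replicated, DNMT1 restores methylation on the daughter strand at CpGs that carried it before. DNMT1* is the copy of the enzyme that was withdrawn from the knockout cells.

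Gene starts could be placed for 11 of the 39 HOX genes. RefSeq promoter windows (GRCh38.p14, 250 bases before to 50 after the start) were at hand for 20 of them, and a window was placed where the spacing of its CpGs matched the CpGs listed in hg19. Placed windows had 10 to 28 matching CpGs. Among positions on the same chromosome where every listed CpG matched the window, no other had more than 6. None was placed in HOXB or HOXC. The windows of 4 genes are printed because they carry the contrast described below: HOXA6 and HOXA7, which help to pattern the trunk, had methylated reads at many CpGs ahead of their starts, at window levels of 28.7% and 8.56% on days 0 and 1, whereas HOXA13 and HOXD13, which act in the limb ends and the urogenital tract, had almost none. The windows are chr7:27147725-27148024 for HOXA6, chr7:27156626-27156925 for HOXA7 and chr7:27200042-27200341 for HOXA13, all on the minus strand, and chr2:176092471-176092770 on the plus strand for HOXD13, in GRCh38.p14. They are written 5′ to 3′ on the gene's strand, and capitals mark the CpGs that were measured.
HOXA6: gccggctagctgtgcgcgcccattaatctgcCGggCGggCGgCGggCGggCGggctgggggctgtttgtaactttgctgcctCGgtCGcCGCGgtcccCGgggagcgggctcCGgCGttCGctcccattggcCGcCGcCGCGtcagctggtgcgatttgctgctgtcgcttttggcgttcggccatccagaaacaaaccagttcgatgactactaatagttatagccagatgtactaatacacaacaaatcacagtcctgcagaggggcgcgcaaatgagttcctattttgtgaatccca
HOXA7: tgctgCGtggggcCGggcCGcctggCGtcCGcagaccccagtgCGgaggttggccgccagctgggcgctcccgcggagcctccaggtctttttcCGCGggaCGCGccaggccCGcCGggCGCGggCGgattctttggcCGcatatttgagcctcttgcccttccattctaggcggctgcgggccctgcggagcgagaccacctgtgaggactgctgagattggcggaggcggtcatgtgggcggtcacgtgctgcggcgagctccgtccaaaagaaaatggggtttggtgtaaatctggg
HOXA13: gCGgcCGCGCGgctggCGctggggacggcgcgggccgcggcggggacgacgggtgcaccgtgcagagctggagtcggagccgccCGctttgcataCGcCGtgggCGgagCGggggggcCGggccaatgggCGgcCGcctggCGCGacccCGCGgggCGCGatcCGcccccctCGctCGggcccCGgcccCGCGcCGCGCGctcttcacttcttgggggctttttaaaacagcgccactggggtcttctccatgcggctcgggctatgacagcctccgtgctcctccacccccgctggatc
HOXD13: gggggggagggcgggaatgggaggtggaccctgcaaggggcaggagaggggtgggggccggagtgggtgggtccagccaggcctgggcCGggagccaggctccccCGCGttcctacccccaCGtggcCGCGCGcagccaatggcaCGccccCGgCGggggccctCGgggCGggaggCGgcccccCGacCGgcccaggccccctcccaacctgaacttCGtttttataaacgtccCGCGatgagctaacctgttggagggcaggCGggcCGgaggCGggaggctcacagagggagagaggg
These windows hold 29, 31, 44 and 24 CpGs, of which 18, 16, 28 and 21 were measured. At least as many CpGs are found in 24.2%, 20.7%, 4.19% and 33.9% of all promoter windows in the table.

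Depth differed between the days. The libraries of days 0, 1, 2, 6 and 7 are deep, with 77691782 to 161534152 CpG read calls, and those of days 3, 4 and 5 are shallow, with 12359218 to 15156251. Within the clusters the median was 30 to 61 reads per CpG in deep libraries and 5 to 6 in shallow ones. Levels below are percentages of methylated reads. Except for gene starts and the tile test, they use 3693 HOX CpGs (1032 in HOXA, 1035 in HOXB, 712 in HOXC and 914 in HOXD). These have 10 or more reads in each deep library and at least 1 in each shallow library. The 2198267 autosomal CpGs outside the clusters that passed the same minimum were used beside them. The remaining 1422 HOX CpGs fell under it. Gene-start levels use every listed CpG of the window, with no read minimum, and the tile test has its own minimum, given below. CpGs and 1-kb tiles were classed by their pooled level on days 0 and 1 as methylated (80% or more), intermediate, or unmethylated (20% or less). Reads of a tile, stretch or window are summed over its CpGs, so a read counts at each CpG it covers. Intervals are Wilson 95% intervals and cover counting error only, since RRBS reads lack molecular identifiers and neighbouring CpGs share reads. The same holds for the limits given for a share of 0, which are the share at 3 methylated reads.

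At the start of the course the clusters were almost free of methylation. Of the HOX CpGs, 93.6% were unmethylated, 5.5% intermediate and 0.948% methylated, against 31.1%, 26.9% and 42.0% of the CpGs outside. No methylated read was seen on days 0 and 1 at 54.8% of HOX CpGs, against 24.2% outside. In HOXC 35.1% of CpGs had no methylated read, compared with 62.5% in HOXA, 55.7% in HOXB and 60.4% in HOXD, a difference that was not tested. The 35 methylated HOX CpGs lay in HOXB (24), HOXD (10) and HOXA (1), and HOXC had none.

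The small amount of methylation that the clusters did hold was largely lost. The mean over HOXA CpGs was 4.14, 3.88, 3.09, 3.30, 1.52, 2.87, 0.798 and 0.715% on days 0 to 7. In HOXB it was 6.23, 5.84, 4.87, 3.79, 2.51, 2.81, 1.77 and 1.61%. HOXC CpGs averaged 5.06, 4.79, 3.89, 3.21, 1.85, 1.69, 0.938 and 0.828%, and HOXD CpGs 3.73, 3.5, 2.94, 1.94, 1.63, 1.36, 0.828 and 0.814%. Each cluster stood lower on days 6 and 7 than on any earlier day, and HOXB was the highest of the 4 on every day but day 5. In HOXA the shallow libraries of days 3 and 5 stood above their neighbouring days.

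Mean methylation fell by 0.50 ± 0.096 points per day in HOXA, 0.72 ± 0.066 in HOXB, 0.68 ± 0.052 in HOXC and 0.46 ± 0.041 in HOXD (slope ± standard error, 8 libraries). Exact two-sided permutation of the days gave p = 0.0032, 0.00015, 5e-05 and 5e-05, where 5e-05 is the smallest p that 8 days allow, and Benjamini-Hochberg adjusted values of 0.0095, 0.0006, 0.0003 and 0.0003 over 12 trends. Over the 5 deep libraries alone the slopes were -0.58, -0.71, -0.69 and -0.44 points per day, with adjusted p of 0.011 to 0.017 from the exact permutation of 5 days. There the adjustment ran over these 4 cluster means only, a smaller family than the 12 trends, because trends of classes had too few days for a p. These p values rest on 1 course with 1 library a day and do not cover variation between courses. On day 7, HOXA kept 17.3% of its day 0 mean, HOXB 25.9%, HOXC 16.4% and HOXD 21.9%, and the CpGs outside kept 20.9%, with means of 11.4% on day 7 and 54.7% on day 0. These shares take in CpGs of all starting levels, and they were not tested against each other.

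**Figure D1:**
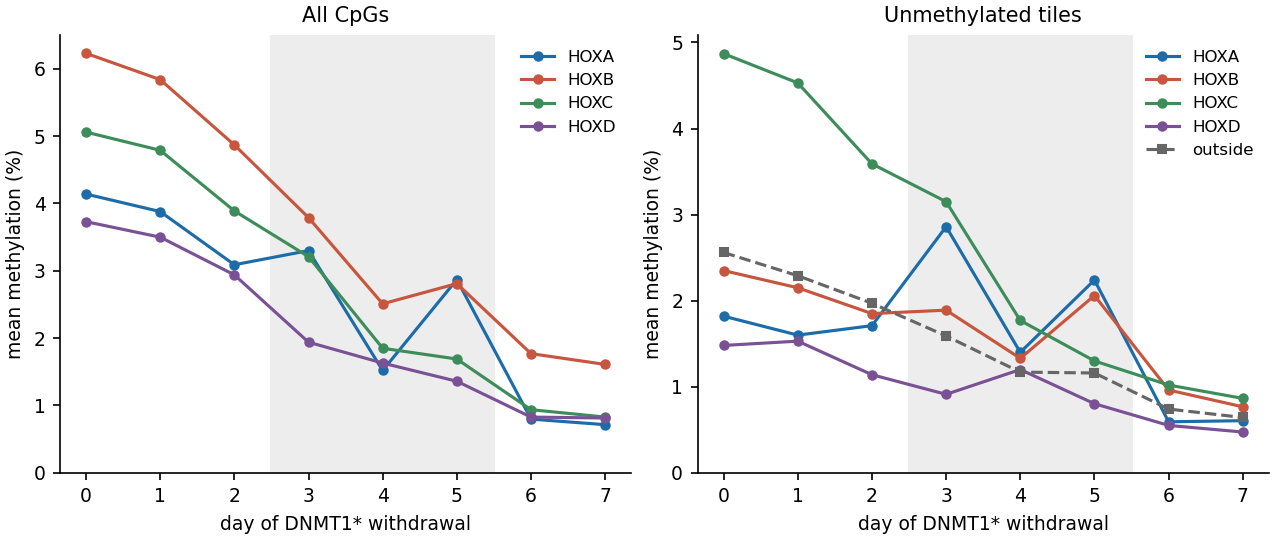
Mean methylation (%) by day of DNMT1* withdrawal for all CpGs of each HOX cluster (left) and for the unmethylated 1-kb tiles of each cluster and of the autosomes outside them (right), 1 library a day. Grey marks the 3 shallow libraries of days 3, 4 and 5; all 4 clusters end under 2% on day 7, and HOXC starts highest among the unmethylated tiles, at 4.87% on day 0.

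The clusters were made up of long unmethylated stretches. Of the 247 HOX tiles with 3 or more such CpGs, 220 were unmethylated (89.1%), 26 intermediate and 1 methylated, whereas 12.9% of the 241174 autosomal tiles outside were unmethylated, 46.5% intermediate and 40.6% methylated. The unmethylated class took in 57 of 63 HOXA tiles, 63 of 74 HOXB tiles, 52 of 56 HOXC tiles and 48 of 54 HOXD tiles. The tile just above the lower limit stood at 20.1% (HOXB) and the one just below it at 17.5% (HOXC), and the only tile above the upper limit stood at 80.4%, with the next at 76.3% (both HOXD). When runs of 2 or more tiles of 1 class were joined across gaps of at most 3 kb, 11 of 28 unmethylated HOX stretches reached 10 kb (39.3%), against 146 of 8778 outside (1.66%).

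The longest unmethylated stretch on any autosome lay in HOXB at chr17:46647001-46682000, 35 kb with 249 CpGs in 20 tiles. Its level was 0.401% (95% interval 0.313 to 0.515) on day 7, against 0.97% (0.837 to 1.12) on day 0. Second in length was the HOXA stretch chr7:27201001-27233000, of 32 kb with 369 CpGs, at 0.402% on day 7 and 0.904% on day 0. In the shallow library of day 5 these stretches read 1.07% and 0.911%. The longest stretch outside the clusters measured 31 kb. The HOXD stretch chr2:176957001-176982000 (25 kb) read 0.23% on day 7 and 0.919% on day 0, and a further HOXA stretch, chr7:27134001-27158000 (24 kb), read 0.771, 0.903, 0.631, 3.39, 1.32, 2.9, 0.558 and 0.475% on days 0 to 7. In that HOXA stretch the 3 shallow libraries of days 3, 4 and 5 stood above all 5 deep ones, with 3.39% (2.59 to 4.43) on day 3, and the part of depth in this was not tested. HOXC's longest, chr12:54343001-54363000 (20 kb), was methylated more at the start, with 0.898% (0.732 to 1.10) on day 7 and 5.80% (5.38 to 6.25) on day 0. This ranking depends on the gap allowed between covered tiles: with 1 kb, a limit chosen after seeing the data, the longest HOX stretch was 19 kb, the longest outside was 27 kb, and 1 of the 10 longest lay in a HOX cluster in place of 4.

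**Figure D2:**
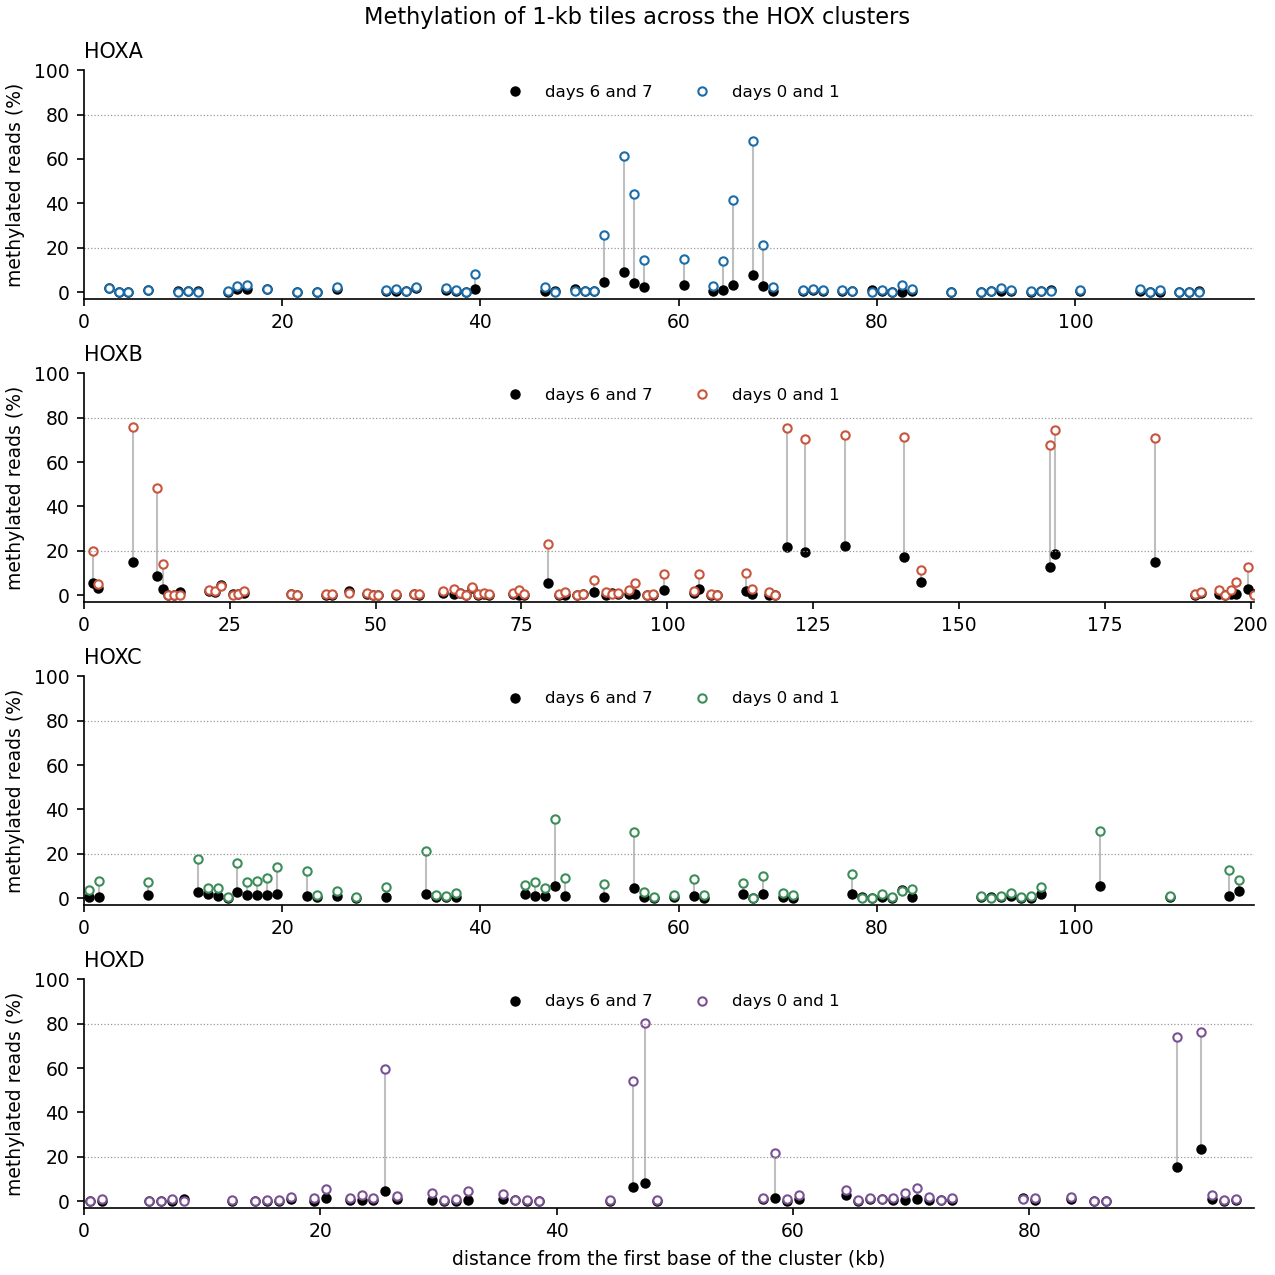
Percentage of methylated reads in each 1-kb tile against its distance (kb) from the first base of the cluster, with filled points for days 6 and 7 pooled, open points for days 0 and 1 pooled, a line joining the same tile, and dotted lines at the class limits of 80% and 20%. Most tiles lie near 0 on both pairs of days; HOXA has 1 raised block, HOXB has 11 tiles above 20%, most of them at the far left or in the right part of the panel, HOXC has 19 unmethylated tiles at 5% or more, and HOXD has 6 tiles above 20%.

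HOXA held its raised tiles in a single block, chr7:27184001-27201000, in which 6 of 10 tiles were intermediate. Within that block the level on days 0 and 1 was 25.5, 61.3, 44.0, 14.5, 14.9, 2.51, 13.8, 41.7, 68.3 and 21.2% along the chromosome, with a dip between 2 peaks. The tile chr7:27187001-27188000, which contains the HOXA6 window, fell to 3.97% on day 7 (65 of 1636 reads), against 43.8% on day 0 (767 of 1752), and its trend over the 8 days passed the tile test described below. All 53 measured HOXA tiles outside the block were unmethylated.

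At gene starts the same contrast appeared. Of 14 placed windows, 13 were unmethylated and 1, HOXA6, was intermediate. Placement needed 8 or more matching CpGs, so starts with few measured CpGs were left out. The share of unmethylated starts over all promoters was not computed, so these counts are not set against a background. The HOXD1 window also shares CpGs with a HAGLR window. The 18 CpGs of HOXA6, at chr7:27187502-27187611 in hg19 and 110 to 219 bases before the start, read 25.8, 35, 12.7, 0, 7.69, 0, 1.37 and 1.63% on days 0 to 7. The zeros of days 3 and 5 rest on 46 and 36 reads summed over CpGs, with at most 5 and 6 at any 1 CpG. Taken as independent these would allow shares of up to 6.52% and 8.33%. Neighbouring CpGs share reads, so the true limits are higher. Deep libraries of days 6 and 7 did not overlap those of days 0, 1 and 2. On days 0 and 1 pooled, single CpGs of this window ranged from 13.9 to 44.8%, with the 6 farthest from the start at 37.9 to 44.8%. The 2 days did not share this order. Those 6 read 40.9 to 52.4% on day 0 and 12.5 to 42.9% on day 1, with 6 to 8 reads each on day 1. CpGs 110 to 138 bases before the start read 15.4 to 26.7% on day 0 and 28.6 to 62.5% on day 1, with 7 or 8 reads each on day 1.

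HOXA7 lay at the other side of the dip and was lower. The 16 measured CpGs before its start, at chr7:27196405-27196538, read 10, 4.38, 13.9, 0, 2.74, 0, 0.95 and 0.198% on days 0 to 7. Day 2 was the highest of the 8 libraries and day 7 the lowest with methylated reads, at 1 of 504. By contrast, the 28 CpGs of the HOXA13 window (chr7:27239761-27239958) gave 1 methylated read of 1318 on day 0 and 0 on every later day. Taken as independent, 0 of 1122 reads on day 7 would allow a share of up to 0.267%. The HOXD13 window (chr2:176957287-176957473) gave 1 methylated read of 1038 on day 7 and 0 of 1220 on day 0, which on the same terms would allow up to 0.246%. The other windows stood between 0 and 1.09% on days 0 and 1: HOXA3, which patterns the pharyngeal arches, HOXA10, which acts in the developing uterus, HOXD1, HOXD8, HOXD10, HOXD11 and HOXD12, both starts of the long noncoding RNA gene HAGLR, and LOC100129455.

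**Figure D3:**
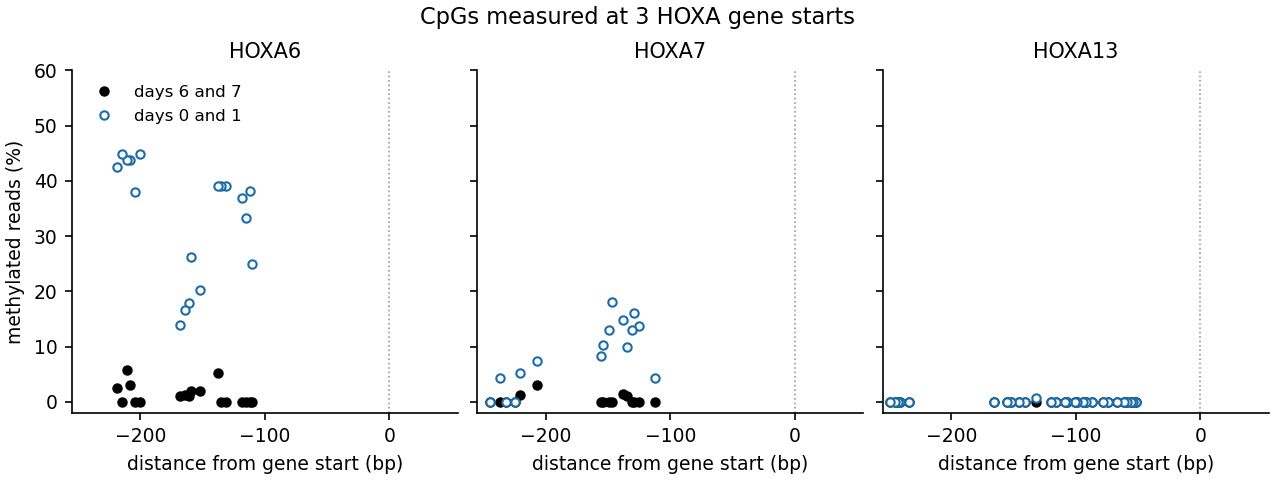
Percentage of methylated reads at each measured CpG against its distance (bp) from the gene start, for HOXA6, HOXA7 and HOXA13, with filled points for days 6 and 7 pooled and open points for days 0 and 1 pooled. HOXA6 CpGs start between 13.9 and 44.8%, HOXA7 CpGs at or under 18.1%, and HOXA13 CpGs at or near 0, and no CpG of the 3 genes stays above 10% on days 6 and 7.

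HOXB carried the most tiles above 20%, 11 in all. Of these, 8 stood at 67.5 to 75.9% on days 0 and 1, and 7 of the 8 lay between chr17:46726001 and chr17:46790000, between long unmethylated stretches of that cluster. As background, HOXB13 is set apart from the remaining HOXB genes by a long interval, but no HOXB start was placed here. HOXC had no tile above 35.9% on days 0 and 1. In HOXD the single methylated tile of the 4 clusters, chr2:177004001-177005000, adjoined an intermediate one and read 80.7, 79.7, 59.4, 32.7, 0, 28.1, 6.79 and 10.3% on days 0 to 7, with 12 reads on day 4. It kept 10.4% of its starting level on days 6 and 7, and the methylated tiles outside kept a median of 23.3%. With 1 such tile and no methylated read in it on day 4, neither its decline relative to methylated tiles outside nor that of intermediate relative to methylated HOX tiles could be fitted on the log scale, so the intermediate tiles were compared instead, which was decided once the class sizes were known.

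The 6 intermediate HOXA tiles averaged 45.0, 40.8, 30.6, 18.0, 7.06, 5.88, 5.78 and 4.21% on days 0 to 7. The 11 in HOXB averaged 62.2, 58.2, 48.5, 31.4, 25.2, 18.3, 15 and 14.1%. The 4 in HOXC averaged 30.9, 26.3, 25.1, 26.0, 7.36, 13.1, 3.53 and 5.31%. All of these groups ended lower than they began. On day 4, a shallow library, HOXA tiles stood at 7.06% and HOXB tiles at 25.2%, with 426 and 338 reads in all. They had begun at 45.0 and 62.2%, so these levels do not compare the timing of loss. The 5 in HOXD averaged 58.9, 53.1, 47.2, 21.5, 29.1, 13.3, 11.1 and 9.37%. The 112133 intermediate tiles outside averaged 70.5, 66.4, 58.7, 41.4, 29.3, 24.6, 16.9 and 14.3%.

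The share of their starting level that intermediate tiles kept on days 6 and 7 was lower in HOXA than in HOXB. It ranged from 7.76 to 17.5% (median 11.9%) over the 6 HOXA tiles and from 17.8 to 30.8% (median 23.8%) over the 11 HOXB tiles. HOXC tiles kept 8.84 to 17.7% (median 15.5%), and HOXD tiles 7.11 to 30.5% (median 11.5%). The HOXA and HOXC ranges ended just under the HOXB range, by less than the counting error of the tiles at these ends. The HOXA tile that kept 17.5% went from 25.5% to 4.46% (95% interval 3.27 to 6.06). The HOXB tile that kept 17.8% went from 48.1% to 8.55% (7.18 to 10.1). Intermediate tiles outside kept 0 to 74.9% (median 22.4%). The HOXA and HOXB tiles also began at unlike levels, with medians of 42.8% and 70.8% on days 0 and 1. The part of the starting level in the kept share was not tested. A pair of tiles with similar starting levels, picked after their values were seen, is given as an example only. A HOXA tile at 68.3% on days 0 and 1, chr7:27199001-27200000, stood at 7.83% on days 6 and 7 (95% interval 5.94 to 10.3), and a HOXB tile at 67.5%, chr17:46771001-46772000, stood at 12.8% (9.77 to 16.7), and these intervals overlap slightly.

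A test over the libraries of days 2 to 7 did not separate the clusters. The log of the HOXA mean minus that of HOXB changed by -0.14 ± 0.062 per day (exact two-sided permutation p = 0.11, adjusted p = 0.66 over the 6 pairs of clusters). The smallest p that 6 days allow is 0.0028. With tiles weighted by reads the change was -0.14 ± 0.039, with exact permutation p = 0.0056 and adjusted p = 0.033. None of the other 5 pairs passed, with adjusted p of 0.66 to 0.94. Against intermediate tiles outside, the difference per day was -0.0093 ± 0.020 for the 26 HOX tiles together (exact permutation p = 0.67), -0.10 ± 0.067 for HOXA (p = 0.21), 0.035 ± 0.022 for HOXB (p = 0.18), -0.093 ± 0.10 for HOXC (p = 0.41) and -0.026 ± 0.064 for HOXD (p = 0.69). Adjusted values were 0.37 to 0.69, and tests that miss the threshold with 4 to 11 tiles and 6 libraries do not show that the rates are equal. Of these, 2 passed under another setting, namely HOXB weighted by reads (0.044, adjusted p = 0.04) and HOXA over all 8 days (-0.13, adjusted p = 0.035). The setting of all 8 days puts days 0 and 1, which chose the class, back into the slope, so that pass is not independent of the class rule.

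**Figure D4:**
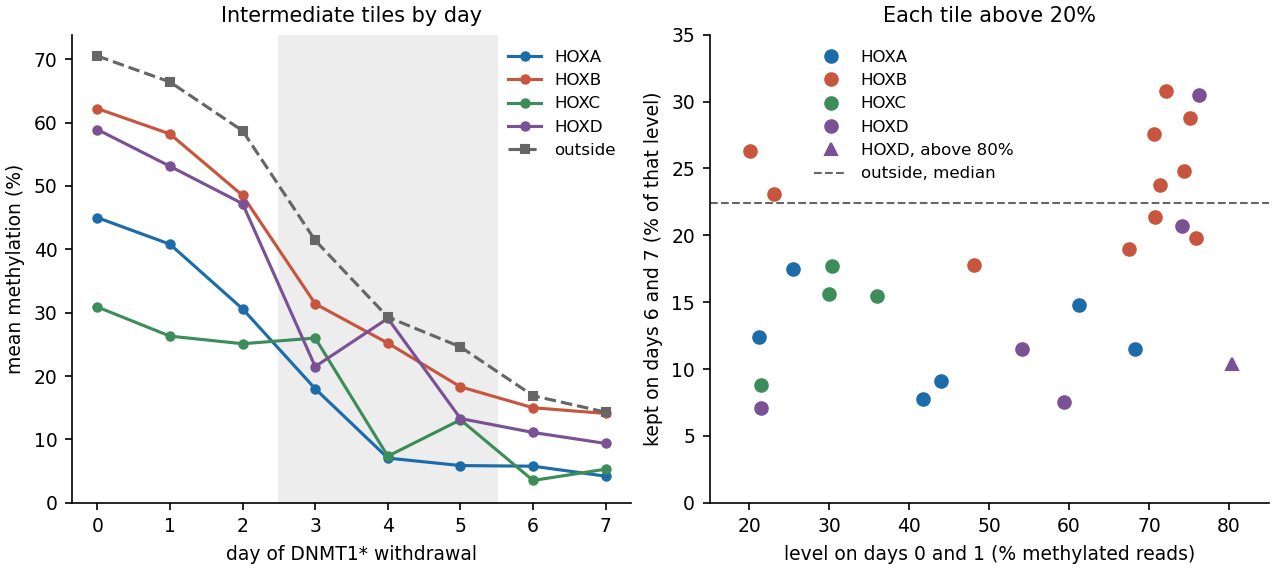
Left, mean methylation (%) of intermediate 1-kb tiles by day for each HOX cluster and for the autosomes outside, with the shallow days in grey; right, the share (%) of the level on days 0 and 1 that each HOX tile above 20% kept on days 6 and 7, against that level, with the dashed line at the median outside, 22.4%. HOXA tiles kept 7.76 to 17.5% and HOXB tiles 17.8 to 30.8%, and the triangle is the only HOX tile above 80%.

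Position next to unmethylated DNA was examined in the same way. The 16 HOX tiles above 20% with an unmethylated tile within 2 kb averaged 6.28% on day 7 and 43.6% on day 0, and the 11 without such a neighbour averaged 14.4% and 68.7%. The log difference changed by -0.044 ± 0.060 per day (exact permutation p = 0.55, adjusted p = 0.66), so a difference in rate was not detected. Within HOXD, chr2:177051001-177052000, beside an unmethylated tile, kept 30.5%, and chr2:177015001-177016000, also beside one, kept 7.11%.

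The mean of the unmethylated HOX tiles fell too, although most of these tiles did not pass a test of their own, as given below. Their mean was 2.62, 2.43, 2.07, 2.23, 1.43, 1.65, 0.791 and 0.684% on days 0 to 7, and that of 31166 unmethylated tiles outside was 2.56, 2.29, 1.97, 1.59, 1.17, 1.16, 0.741 and 0.643%. From day 2 to day 7 the HOX mean fell by 0.31 ± 0.067 points per day (exact permutation p = 0.019, adjusted p = 0.047). This call was lost in 7 of the 8 fits that left out a day, where adjusted p reached 0.16 and the slope lay between -0.372 and -0.28. Leaving out 1 of days 2 to 7 also raises the smallest p that the permutation can reach, so a lost call need not mean a weaker slope. In the 5 deep libraries, of which days 2, 6 and 7 enter the slope, the slope was -0.32, a value with no test. The difference in slope from the tiles outside was -0.052 ± 0.062 (exact permutation p = 0.42).

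Among unmethylated tiles those of HOXC carried the most methylation at the start, given here without a test. On days 0 to 7 unmethylated HOXC tiles averaged 4.87, 4.53, 3.59, 3.15, 1.77, 1.30, 1.02 and 0.865%. The corresponding day 0 means were 1.82% in HOXA, 2.35% in HOXB and 1.48% in HOXD. A level of 5% or more on days 0 and 1 was found in 36.5% of the 52 HOXC tiles, against 9.52% of the 168 unmethylated tiles of the other clusters and 16.9% of those outside. The highest, chr12:54343001-54344000, stood at 2.60% on days 6 and 7 (1.53 to 4.40) and 17.5% on days 0 and 1.

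A regression of methylated against unmethylated reads on day, fitted to 210012 tiles of the genome with moderated dispersion (limma), called 90.2% of tiles as falling and 0.15% as rising at a Benjamini-Hochberg adjusted p below 0.05. In the clusters 233 tiles were tested, of which 109 fell and 2 rose. This test used all 8 days, and days 0 and 1 also set the class, so the shares by class are not independent of the class rule. All 22 intermediate tiles tested and the methylated one fell, as did 93391 of 93397 intermediate tiles over the genome (100% after rounding). Among unmethylated tiles 86 of 210 fell (41.0%), against 34.4% of all unmethylated tiles. Their median slope was -0.148 log odds per day in the clusters and -0.147 outside. The median fitted change was -0.608 points in the clusters and -0.205 points outside, where unmethylated tiles began at medians of 1.12% in the clusters and 0.331% outside. By cluster, 12 of 52 unmethylated HOXA tiles fell (23.1%), 19 of 63 in HOXB (30.2%), 36 of 51 in HOXC (70.6%) and 19 of 44 in HOXD (43.2%). Over the 5 deep libraries alone these shares were 21.0, 34.8, 66.1 and 46.9%. HOXC tiles also began higher, as given above, and the part of the starting level in these counts was not tested.

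Gains were rare. The 2 unmethylated tiles that rose are 0.952% of those tested, against 1% of all unmethylated tiles. In HOXA, chr7:27135001-27136000 gave 2 methylated reads of 1207 on day 7 and 1 of 1128 on day 6, with 0 of 1281 on day 0 and none on the other days (adjusted p = 0.023). In HOXB, chr17:46622001-46623000 gave 1 of 249 on day 7 and 4 of 205 on day 6, with 0 of 277 on day 0 and none on the other days (adjusted p = 0.017). Both calls rest on at most 5 methylated reads, 0 were made with each tile's own dispersion, and leaving out a day gave 0 to 4.

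The unmethylated tile with the most reads is given for each cluster. These tiles hold 41 to 49 CpGs, against a median of 12 in unmethylated HOX tiles, so they need not stand for the clusters. Of the unmethylated HOX tiles 47.7% were under 1% on days 0 and 1, against 66% of those outside. In HOXA, chr7:27232001-27233000 (49 CpGs) had 19 methylated reads of 2752 on day 7 and 28 of 3372 on day 0, a change that did not pass (adjusted p = 0.26). In HOXB, chr17:46620001-46621000 (45 CpGs) fell to 1 of 3231 reads on day 7, against 9 of 3941 on day 0 (adjusted p = 0.0069). The HOXC tile chr12:54394001-54395000 (41 CpGs) fell to 8 of 2673, against 34 of 2771 (adjusted p = 0.00053). The HOXD tile chr2:177036001-177037000 (47 CpGs) had 45 of 2842 on day 7 and 34 of 3551 on day 0, which did not pass (adjusted p = 0.45).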

How the data were processed

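RRBS of genomic DNA from 8 libraries was used, each 1 day of the course. Per the submitters' processing notes the build is hg19; how reads were aligned, called, filtered and treated for duplicates was not given in the sources used here. In the deposited files every CpG has methylated and total read counts and a score from the authors that equals 1000 times the share, rounded, in 100% of lines, so the counts were used. Positions were changed to count from 1.

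Libraries of days 3, 4 and 5 are shallow, which limits precision there. CpG and tile levels, classes, stretches and trends were computed as stated with the results, with equal weight for each CpG or tile. Classes use days 0 and 1, so trends of class means use days 2 to 7. The tile regression used all 8 days, so its counts by class share days 0 and 1 with the class rule. The tile regression was quasi-binomial, needed 3 CpGs with reads in all 8 libraries and 10 reads per tile and library, and kept the dispersion (limma squeezeVar 3.58.1, R 4.3.3) at 1 or more; it was tested on simulated data. Other steps used Python 3.11.15, numpy 2.4.6, pandas 2.3.3 and scipy 1.17.1. Named tiles are, per cluster, the methylated tile and the unmethylated tile with the most reads, the tiles above 20% that kept most and least, tiles that rose, the longest stretches, and gene starts above 20%; others were named after their values were seen. Members, lists and tests were chosen with earlier results of these data known. Alternatives were other read minimums, tile sizes, CpG minimums, class limits, weights, comparison tiles, dispersions, the deep libraries alone and each day left out.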

Additional observations from a re-analysis of the deposited data

How the results depend on the processing

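No paired analysis was possible because each day has 1 library and the replicate number only names it. Of 508 recomputed values, 451 kept their direction and side of the threshold or moved little. All 4 cluster means kept a falling slope past the threshold under every setting run, where the deep libraries alone were adjusted over these 4 means only. The slope of the unmethylated HOX tiles was -0.289 with 20 reads per CpG, -0.254 with limits of 90 and 10%, -0.268 and -0.331 with tiles of 500 bp and 2 kb, and -0.315 with 1 or more CpGs per tile, none past the threshold (adjusted p 0.055 to 0.15), and -0.372 to -0.28 when a day was left out. Its difference from tiles outside turned to 0.0587 with 2-kb tiles and 0.00278 over all 8 days. The log difference of HOXA and HOXC intermediate tiles turned to 0.0161 and 0.00114 with 5 and 20 reads per CpG, and that of all HOX tiles against tiles outside with 10 or more CpGs was 0.000812. Past the threshold came HOXB against tiles outside (0.0443) and HOXA minus HOXB (-0.138), both weighted by reads, and HOXA against tiles outside over all 8 days (-0.134). Slopes of classes over all 8 days include days 0 and 1, which also chose the classes. Leaving out a day gave -0.0651 to 0.0129 for tiles beside unmethylated ones, -0.034 to 0.0102 for all HOX tiles against outside, -0.0635 to 0.00484 for HOXD against outside, -0.0864 to 0.0803 for HOXA minus HOXC, and -0.128 to 0.0166 for HOXC minus HOXD, none past the threshold. With CpGs of 10 or more reads in every library only, 10 HOX tiles were tested, of which 3 fell and 0 rose (all tiles: 71.4% fell, 0.27% rose), and 2 of 5 unmethylated HOXC tiles fell (40%; all unmethylated tiles 20.7%). With each tile's own dispersion 0 rose, and leaving out a day gave 0 to 4. In 2-kb tiles 30 of 35 unmethylated HOXC tiles fell (85.7%; all unmethylated tiles 47.7%). Limits of 90 and 10% left 84.2% of HOX tiles unmethylated. A gap of 1 kb gave 19 kb as the longest HOX stretch and 1 HOX stretch among the 10 longest. The causes were not tested. Methylated HOX tiles could be set against methylated tiles outside with 1 or more CpGs per tile (4 tiles, 0.0633, exact permutation p = 0.81) and without day 4 (-0.107, p = 0.41). The limits are 1 course, 1 library a day, 5 or 6 reads per HOX CpG on days 3 to 5, and 4 to 11 intermediate tiles per cluster.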

Other observations

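Pooled over the 4 clusters, HOX tiles that began closest to 0 read higher in the shallow libraries than in the deep ones. This pattern was noticed in these data and is given here as values only. The 105 HOX tiles under 1% on days 0 and 1 pooled to 0.397, 0.389, 0.369, 0.916, 0.671, 0.968, 0.302 and 0.223% methylated reads on days 0 to 7. The 20562 such tiles outside pooled to 0.22, 0.201, 0.186, 0.228, 0.18, 0.205, 0.134 and 0.123%. On day 5, 9 of the 105 HOX tiles stood at 5% or more (8.57%), against 1.01% of those outside, and the median tile held 92 and 96 reads. Of these 9, 5 lay in HOXA, among them 3 adjoining tiles in chr7:27181001-27184000 with 7 of 35, 8 of 130 and 16 of 305 methylated reads. On day 3 the figure was 5 of 105 tiles (4.76%), against 0.958% outside, and on day 4 it was 2 (1.9%), against 0.632%. On days 6 and 7 no HOX tile of this set reached 5%. Not all parts of the clusters shared the pattern, as whole unmethylated stretches show. The HOXB stretch chr17:46627001-46634000 read 2.95, 3.57 and 7.4% on days 3, 4 and 5, against 2.24% on day 0. By contrast, the HOXD stretch chr2:176957001-176982000 read 0.409, 0.459 and 0.363% on those days, against 0.919% on day 0. Days 3, 4 and 5 are also the shallow libraries, so day and library cannot be told apart.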
